A study of Mus musculus with 127 samples.

Results

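The specific granule transcripts described here were Camp, Ngp, Ltf, Lcn2, Cd177, Hp, Pglyrp1, Orm1, Chil3 and Chil1, which are 10 of the 23946 genes measured in single mouse bone marrow cells. They were taken by gene symbol, and all 10 were in the table. The cells came from wild-type C57BL/6 mice. After bead enrichment for CD117, the Kit receptor, they were sorted into 3 gates that the labels place in one CD11b+ GMP-P population: CD11b+ (40 cells), Ly6g high (46 cells) and Ly6g low (41 cells). CD11b is an integrin of myeloid cells encoded by Itgam, and Ly6g is a surface protein of granulocytes. The labels gave no age or treatment and named no animal, so each gate counted as 1 sample, no test between gates was made, and every SD describes the spread over cells. Ly6g low cells carried numbers up to 43, Ly6g high cells started at 44, and CD11b+ cells had names of another form. The labels state no plate or run, so gate cannot be told apart from either in any pair of gates.

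Granulocytes build their granules in a fixed sequence as they mature. Primary granules, with myeloperoxidase (Mpo) and neutrophil elastase (Elane), are filled first, at the promyelocyte stage. Specific granules are filled next, at the myelocyte stage, and gelatinase granules with Mmp9 follow. Each set of granule proteins is stored from the transcripts a cell makes at that stage, so a granule transcript marks a stage of maturation. The transcription factor Cebpe is required for specific granule genes, and patients or mice without it lack these granules.

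The members fall into groups by what their proteins do. Camp, the precursor of the cathelicidin peptide, and Pglyrp1, a peptidoglycan recognition protein, act on bacteria directly. Ltf (lactoferrin, which binds iron), Lcn2 (a lipocalin that binds bacterial siderophores) and Hp (haptoglobin, which binds hemoglobin) withhold iron. Ngp is a cystatin-related granule protein, Cd177 is a surface glycoprotein of neutrophils that is also stored in granules, and Orm1 is a lipocalin of the acute phase. Chil3 and Chil1 are chitinase-like proteins without chitinase activity.

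The promoters of 4 members are shown because these genes differed in how many cells held them, as described below: Pglyrp1 and Chil3 were among the members found in more cells, Cd177 and Chil1 among those found in fewer. Each run is the 250 bases before the annotated start, 5′ to 3′ on the gene's strand, from RefSeq on build GRCm38.p6: Pglyrp1 at chr7:18884440-18884689 (plus strand), Chil3 at chr3:106167565-106167814 (minus strand), Cd177 at chr7:24760312-24760561 (minus strand) and Chil1 at chr1:134181906-134182155 (plus strand). Capitals mark matches to the C/EBP pattern TTNNGNAA on either strand.
Pglyrp1: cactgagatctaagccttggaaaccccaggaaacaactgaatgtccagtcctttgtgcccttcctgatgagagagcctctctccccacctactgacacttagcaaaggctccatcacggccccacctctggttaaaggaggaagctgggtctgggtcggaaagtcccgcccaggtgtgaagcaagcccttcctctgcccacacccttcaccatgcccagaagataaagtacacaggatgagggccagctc
Chil3: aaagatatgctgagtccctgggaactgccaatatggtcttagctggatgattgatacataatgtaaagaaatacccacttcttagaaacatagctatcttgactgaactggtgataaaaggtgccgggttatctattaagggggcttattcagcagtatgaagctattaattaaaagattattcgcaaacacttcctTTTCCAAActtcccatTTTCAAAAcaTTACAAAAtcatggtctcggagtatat
Cd177: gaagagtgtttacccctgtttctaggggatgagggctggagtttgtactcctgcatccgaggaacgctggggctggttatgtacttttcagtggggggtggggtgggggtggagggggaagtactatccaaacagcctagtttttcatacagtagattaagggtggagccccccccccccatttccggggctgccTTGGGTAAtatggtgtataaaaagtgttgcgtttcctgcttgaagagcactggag
Chil1: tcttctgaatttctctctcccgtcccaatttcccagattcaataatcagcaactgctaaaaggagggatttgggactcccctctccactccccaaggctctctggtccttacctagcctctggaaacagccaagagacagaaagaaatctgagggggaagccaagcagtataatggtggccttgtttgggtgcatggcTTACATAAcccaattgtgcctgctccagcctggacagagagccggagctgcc
Of the 10 members, 8 matched a RefSeq promoter, and Hp and Orm1 were not among them. The C/EBP pattern was in 36.8% of 32851 mouse promoters and in 6 of these 8, namely Ngp, Ltf, Lcn2, Cd177, Chil3 and Chil1. Chil3 had 3 matches within 53 bases of its start, Cd177 had 1 and Chil1 had 1, and Pglyrp1 and Camp had 0. The PU.1 pattern GAGGAAGT (2.44% of promoters) and the GFI1 pattern AATCACNGC (0.776%) were found in 0 of the 8. For Camp, Ngp, Ltf and Lcn2 an annotated transcript also held the bases just before the start used here, so part of their 250 bases may be transcribed. A match is a description of these letters and does not show binding.

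The authors deposited 1 of 11 class names for each cell, and how these were assigned is unknown here. The 4 Myelo classes held 102 cells: 5 in Myelo-1, 72 in Myelo-2, 9 in Myelo-3 and 16 in Myelo-4. The other 25 cells were named HSCP-2 (7 cells), Eryth, MDP and Multi-Lin (1 each), Mono (5), Gran-1 (4) and Gran-2 (6). The classes may have been made with these genes, so values by class are a description. The median number of genes at 1 TPM or more was 2464.5 in CD11b+, 1695 in Ly6g high and 2521 in Ly6g low cells, where TPM is a share of a cell's transcripts corrected for gene length. Itgam, averaged over cells, was 66.9 TPM for CD11b+, 228 TPM for Ly6g high and 112 TPM for Ly6g low, and the median of Kit was at or below 0.8 TPM in each gate although the cells were enriched on Kit. Summed genes of erythroid, B, T and NK, basophil and mast, eosinophil, dendritic and macrophage cells and of megakaryocytes had a median of 0 TPM in each gate.

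In 2 cells the marker genes went against the class name. The MDP cell, a Ly6g low cell, had 4 of 5 basophil and mast cell genes, which summed to 222546 TPM with Prss34 alone at 172424 TPM, and it had 1 of 10 monocyte genes. CD11b+ cell 46, of class Myelo-4, had 9 of 10 monocyte genes, which summed to 7757 TPM with Ctss at 4461 TPM, against at most 283 TPM in any Myelo-2 cell. Among the members this cell held Pglyrp1 at 3267 TPM, Chil3 at 8053 TPM and Hp at 527 TPM, but Camp at 15 TPM, Ngp at 65.2 TPM and Ltf at 7.65 TPM. Their part is given beside the summed shares, the counts of cells, Myelo-4 Ltf and the monocyte genes.

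The 10 members together took 1.19% to 30.8% of a cell's TPM in the Myelo classes and 0.0068% to 1.53% in the other classes, so the 2 ranges overlapped. Without CD11b+ cell 46 the lowest Myelo value was 2.30%, and the ranges did not overlap. Along the classes the median share was 0.0227% in HSCP-2, 0.0666% in Mono, 0.211% in Gran-1, 0.381% in Gran-2, 15.8% in Myelo-1, 23.7% in Myelo-2, 15.3% in Myelo-3 and 18.1% in Myelo-4. Since TPM adds up to the same total in every cell, a member can be lower in a cell because other members are higher.

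Within the 72 Myelo-2 cells the members differed widely in level. Ngp was highest with 117724 ± 34516 TPM (mean and SD over cells), and Camp followed with 64186 ± 15403 TPM. Chil3 stood at 17199 ± 6426 TPM and Lcn2 at 15262 ± 5447 TPM, which is within their spread, and Ltf at 9858 ± 5620 TPM. Pglyrp1 was at 3831 ± 1253 TPM and Hp at 1723 ± 1172 TPM. Cd177 at 1191 ± 872 TPM, Chil1 at 681 ± 581 TPM and Orm1 at 260 ± 307 TPM closed the order, and each of these 3 lay within the spread of its neighbour.

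Orm1 and Chil1, with the lowest means, fell to 0 TPM in some Myelo-2 cells, and Camp and Ngp did not. The part of level in this was not tested. Camp spanned 20283 to 110752 TPM and Ngp 28420 to 194960 TPM in Myelo-2 cells, and both were at 100 TPM or more in all 72. Orm1 spanned 0 to 1143 TPM with a median of 112 TPM, and 39 of 72 cells had 100 TPM or more. Chil1 spanned 0 to 2246 TPM with a median of 550 TPM, and 61 of 72 cells had 100 TPM or more. Orm1 and Chil3 have near-identical copies in the mouse genome. Orm2 reached 1 TPM in 2 cells of the whole set, Orm3 in 0 and Chil4 in 22 cells with at most 9.17 TPM, and how reads were split between such copies is uncertain.

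**Figure D1:**
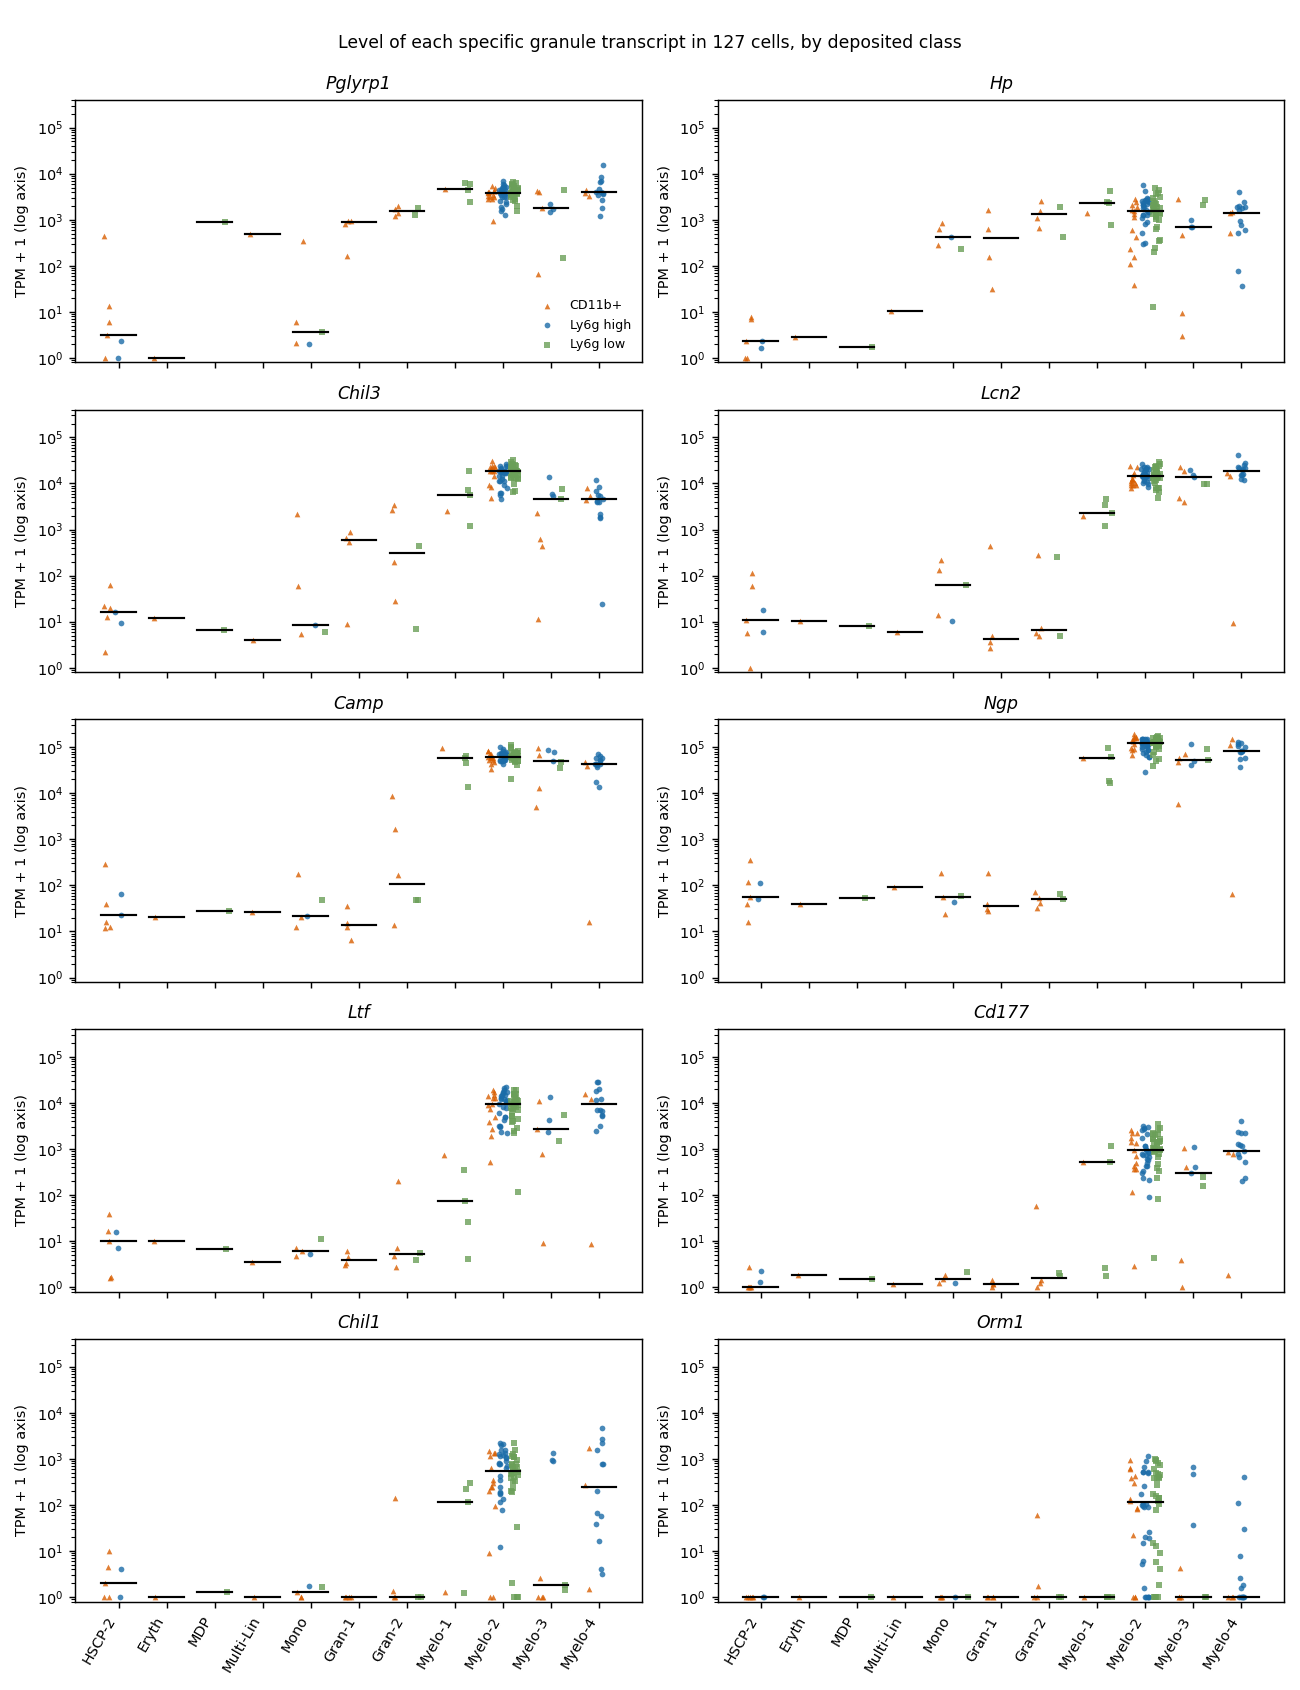
Each point is 1 cell, placed by its deposited class and coloured by gate (CD11b+, Ly6g high, Ly6g low); the y axis is TPM + 1 on a log scale and black bars are class medians. Pglyrp1 and Hp are at 100 TPM or more in all 6 Gran-2 cells, and Orm1 is at 100 TPM or more in Myelo-2, Myelo-3 and Myelo-4 cells alone.

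How widely the members were held was counted as the number of cells with each at 100 TPM or more. Over all cells, Pglyrp1 was in 115, Hp in 110, Chil3 in 108, Lcn2 in 107, Camp and Ngp in 106 each, Ltf in 98, Cd177 in 93, Chil1 in 77 and Orm1 in 43. As shares these ran from 90.6% for Pglyrp1 (exact 95% interval 84.1 to 95.02) to 33.9% for Orm1 (25.7 to 42.8), and these intervals cover counting error only. The counts from Hp to Ngp lie within 4 cells of each other, and no order is read among them. Without the MDP cell and CD11b+ cell 46, Pglyrp1 was in 113 of 125 cells and Hp in 109, and the last 4 counts were the same. The place of Hp depended on the threshold: at 10 TPM it was in 115 cells, behind Ngp (every cell), Camp (126), Chil3 (118) and Pglyrp1 (117), and at 1000 TPM in 75 cells, behind Ltf with 92. Cd177, Chil1 and Orm1 were the last 3 at 1, 10, 100 and 1000 TPM. They also had the lowest Myelo-2 means, so a fixed threshold can place them last through their level alone. At 1% or more of each gene's own Myelo-2 mean they were again the last 3 over all cells, but outside the Myelo classes Ngp was last.

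Pairs of members in the same cells restate these counts and show how far the cells were nested. Camp was found without Ltf in 8 cells, and Ltf without Camp in 0. Camp was found without Cd177 in 13 cells and without Chil1 in 29, and the reverse was found in 0 cells for each. Chil3 was found without Chil1 in 31 cells and the reverse in 0. Pglyrp1 was found without Orm1 in 72 cells and the reverse in 0, whereas Orm1 and Chil1 each occurred without the other, in 8 and 42 cells. A single fixed order was broken in 30 cells at this threshold. All 10 members were present in 34 cells, each of a Myelo class, and no cell outside the Myelo classes held more than 6.

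In the 25 cells outside the Myelo classes the counts were lower. Hp and Pglyrp1 were at 100 TPM or more in 14 of 25 each, Chil3 in 8, Lcn2 in 6, Camp and Ngp in 5 each, and Ltf and Chil1 in 1 each. Cd177 and Orm1 were in 0 of 25, which allows a share of up to 12% by a floor of 3 counts (exact 95% upper limit 13.7%). Without the MDP cell Pglyrp1 was in 13 of 24, and the counts of the other members were the same. Because Ngp and Camp are so abundant in Myelo cells, the same levels were also set against each gene's own mean over Myelo-2 cells. At 1% or more of that mean, Hp was in 15 of 25 cells, Pglyrp1 in 14, Chil3 in 8, Lcn2 in 4, Camp and Chil1 in 2 each, Ltf, Cd177 and Orm1 in 1 each, and Ngp in 0.

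Low levels of the abundant members were present in nearly every cell. Camp, Ngp and Chil3 were at 1 TPM or more in every cell. Outside the Myelo classes the median was 0.0399% of the own Myelo-2 mean for Camp, 0.0437% for Ngp, 0.0511% for Ltf and 0.0606% for Lcn2, so these 4 stood at similar small shares. The Eryth cell, which should lack them, held Camp at 19.1 TPM, Ngp at 38.8 TPM and Ltf at 9.3 TPM. No expression is read from levels of this size, and where they came from was not tested. Ngp stayed at or below 0.299% of its Myelo-2 mean, or 352 TPM, in all 25 of these cells.

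**Figure D2:**
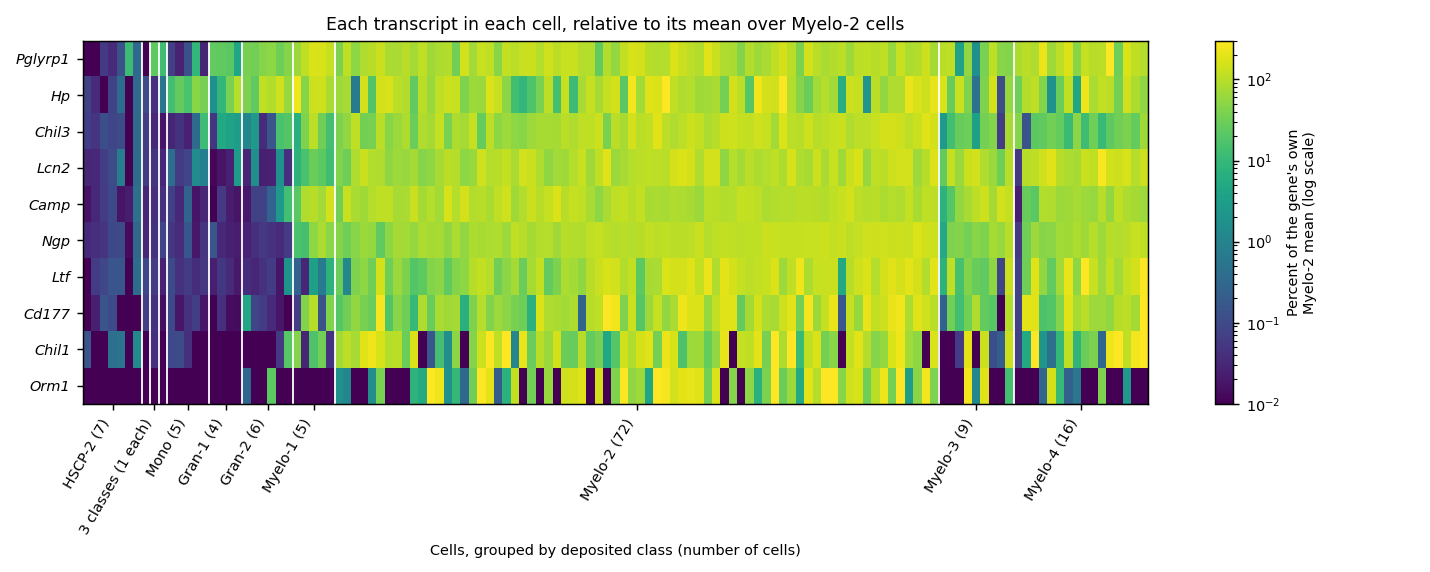
Rows are the 10 members and columns are all cells, grouped by deposited class and sorted within a class by the summed share of the members; colour is the level as percent of the gene's own mean over Myelo-2 cells, on a log scale from 0.01 to 300. Ltf is at 7.71% or less in all 5 Myelo-1 cells, where Camp is at 21.6% or more.

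Hp and Pglyrp1 were the members most shared with cells outside the Myelo classes, and they differed between those classes. Hp was 282, 622, 840, 430 and 234 TPM in the 5 Mono cells, while 4 of these 5 held Pglyrp1 at 4.95 TPM or less and 1 held it at 352 TPM. In the 4 Gran-1 cells Pglyrp1 was 957, 820, 166 and 928 TPM and Hp was 29.9, 642, 1649 and 158 TPM. The 6 Gran-2 cells held Pglyrp1 at 1178 to 1957 TPM and Hp at 418 to 2502 TPM. All 4 Gran-1 cells were CD11b+ cells, while 2 of the 6 Gran-2 cells were Ly6g low cells, so gate differed as well. Both were low in the HSCP-2 cells, with Hp at or below 6.64 TPM in all 7 and Pglyrp1 at or below 12.8 TPM in 6 of 7; CD11b+ cell 44 held it at 443 TPM. Pglyrp1 was also at 886 TPM in the MDP cell and at 479 TPM in the Multi-Lin cell, where Hp was at 0.72 and 9.24 TPM.

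Chil3 was uneven in these classes, with 7.99, 646, 525 and 885 TPM in the 4 Gran-1 cells and 2126 TPM in 1 Mono cell, against 59.3 TPM or less in the other 4 Mono cells. Chil3 was 193, 26.5, 2643, 3327, 429 and 5.93 TPM in the 6 Gran-2 cells, and Camp was 12.7, 163, 1648, 8742, 46.9 and 46.3 TPM in the same cells. The 2 cells with Camp above 1000 TPM, CD11b+ cells 25 and 27, were also the 2 with the most Chil3. Ngp was at 39.8 and 69.6 TPM in them, against 30.96 to 64.83 TPM in the other 4 Gran-2 cells. Ltf was 1.76 TPM in cell 25 and 199 TPM in cell 27, the highest Ltf outside the Myelo classes.

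The 5 Myelo-1 cells (CD11b+ cell 40 and Ly6g low cells 14, 15, 41 and 42) held some members fully and others hardly at all. Camp was 93780, 57226.5, 45439, 13843 and 63151 TPM, and Ngp was 58836, 16939, 97434, 18545 and 61330 TPM. In the same cells Ltf was 760, 3.02, 72.5, 25.7 and 352 TPM. As percent of the Myelo-2 mean, the Myelo-1 mean was 85.2% for Camp, 42.996% for Ngp, 40.6% for Chil3, 17.4% for Lcn2 and 2.46% for Ltf. Pglyrp1 at 125% and Hp at 130% stood above their Myelo-2 means, but within the spread of Myelo-2 cells. Hp was 1378, 786, 2477, 4215 and 2327 TPM in these cells, so its mean leaned on Ly6g low cell 41.

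The remaining members were uneven in Myelo-1. Cd177 was 514, 510, 1.65, 0.77 and 1167 TPM, and Chil1 was 0.3, 0.2, 225, 296 and 115 TPM. The 2 cells with Cd177 under 2 TPM had Chil1 above 200 TPM, and the 2 cells with Chil1 under 1 TPM had Cd177 above 500 TPM. Orm1 was at 0 TPM in all 5. With 5 cells, and 1 library each, this is a description of these cells.

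Myelo-1 cells also held primary granule transcripts. Elane was 9882 to 28465 TPM and Mpo 247 to 12665 TPM in them, against medians of 0.83 and 0.61 TPM in Myelo-2 cells. In all, 26 cells had Elane at 1000 TPM or more. Of these 26, Pglyrp1 was at 1000 TPM or more in 15, Hp and Chil3 in 12 each, Camp in 11, Ngp and Lcn2 in 9 each, Ltf and Cd177 in 2 each, and Orm1 and Chil1 in 0. Over all cells, Ltf was at that level in 92, Hp in 75, Cd177 in 42, Chil1 in 27 and Orm1 in 1. The low counts of Cd177, Chil1 and Orm1 can therefore follow from their level alone, and no order is read from them. The 11 cells with both Elane and Camp at that level were the 5 Myelo-1 cells, 2 Gran-2 cells and 4 Myelo-2 cells. In Ly6g low cell 36, a Myelo-2 cell with 15314 TPM of Elane, Camp was 80449 TPM and Ltf 116 TPM, the lowest Ltf of any Myelo-2 cell.

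The cells were also ordered by genes that are not members, using the mean log2 level of 15 late neutrophil genes minus that of 12 primary granule genes, and cut into 4 bins of 32, 32, 32 and 31 cells. In the first bin, Pglyrp1 and Hp were at 100 TPM or more in 81.3% of cells each, Chil3 in 62.5%, Lcn2 in 56.3%, Camp in 53.1% and Ngp in 50%. Ltf was there in 31.3%, Cd177 in 28.1%, Chil1 in 25% and Orm1 in 9.38%. In the second bin Ltf reached 81.3%, Cd177 75%, Chil1 68.8% and Orm1 46.9%. The first bin held 20 of the 25 cells outside the Myelo classes and had a median of 3752 genes, and the last held 14 of the 16 Myelo-4 cells and had a median of 1578 genes, so class and gene number moved with this order and their part in it was not tested.

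Mean levels peaked in different bins. Ngp (108239 TPM) and Chil3 (15577 TPM) were highest in the second bin, with 98822 and 10374 TPM in the fourth. Camp (62955 TPM), Cd177 (1250 TPM) and Orm1 (247 TPM) were highest in the third. Ltf (10660 TPM), Lcn2 (17646 TPM), Hp (1772 TPM), Pglyrp1 (4626 TPM) and Chil1 (874 TPM) were highest in the fourth. With the cells ordered by the primary granule genes alone, Ltf, Hp and Chil1 were highest in the third bin and Orm1 in the fourth, so the peak moved for 4 of the 10 members. The bins overlapped cell by cell for every member, and the position of the peak is a description without a test.

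**Figure D3:**
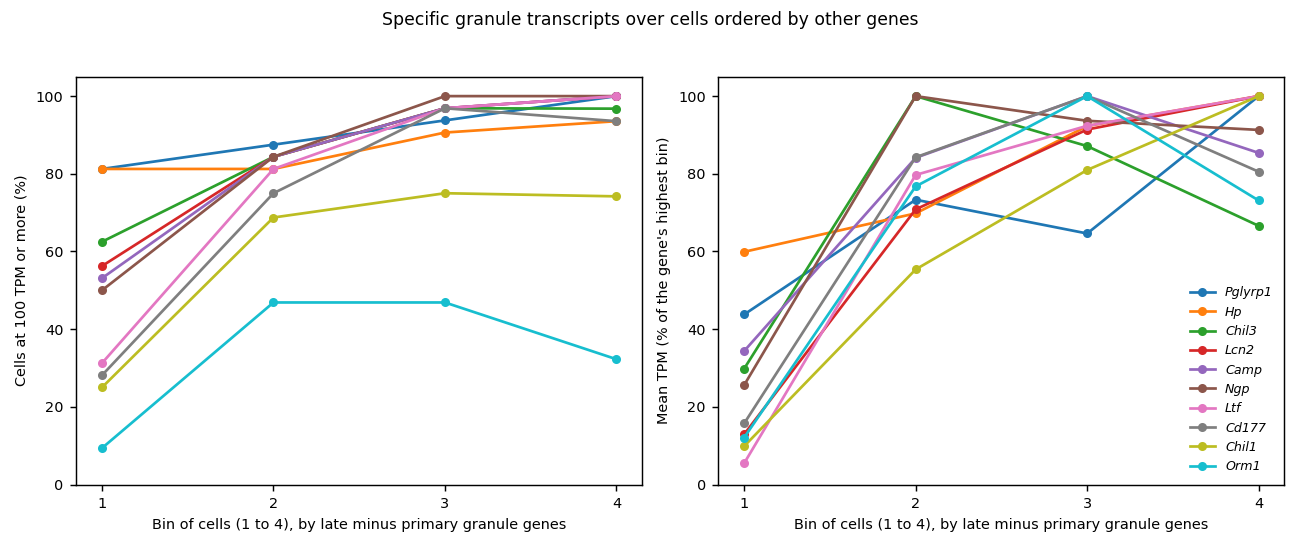
The x axis is the bin of cells, ordered by late neutrophil minus primary granule genes; the left panel gives the percent of cells at 100 TPM or more, and the right panel the mean TPM as percent of the gene's highest bin. Pglyrp1 and Hp start at 81.3% of cells, Orm1 does not exceed 46.9%, and the mean of Chil3 is highest in the second bin.

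The regulator Cebpe was measured beside the members. Its median was 0 TPM in Mono, 6.75 TPM in Gran-1, 40.8 TPM in Gran-2, 85.1 TPM in Myelo-1, 51.99 TPM in Myelo-2, 21.5 TPM in Myelo-3 and 9.54 TPM in Myelo-4 cells. Gfi1, a repressor needed for granulocyte formation, was at 1 TPM or more in 4 of 6 Gran-2 cells, 9 of 72 Myelo-2 cells and 0 of 16 Myelo-4 cells. The ranges of both overlapped between classes.

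Each pair of gates was compared by a log2 ratio, taken on mean TPM + 1, and a gene counted as measured where 25% or more of one gate's cells reached 1 TPM. CD11b+ cells held less of all 10 members than Ly6g high cells. Camp had a lowest, median and highest value of 5.41, 10736 and 95202.5 TPM in CD11b+ cells, against 20.4, 58837 and 102972 TPM in Ly6g high cells. Ltf had 0.62, 357 and 19391 TPM in CD11b+ cells, against 4.34, 8844 and 28592 TPM in Ly6g high cells. The gates overlapped for every member, and for Camp and Ltf the medians lay further apart, as a ratio, than the highest cells.

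Of the 10 members, 4 were at least 2-fold lower in CD11b+ than in Ly6g high cells and 0 at least 2-fold higher. Of all 4447 genes measured in this pair 6.93% were at least 2-fold lower and 44.5% higher. Chil1 had means of 238 TPM in CD11b+ cells against 852 TPM in Ly6g high cells (log2 ratio -1.84), Lcn2 6694 and 16367 TPM (-1.29), Cd177 466 and 1095 TPM (-1.23), and Ltf 4376 and 10091 TPM (-1.21). The median over the members was -0.90, and that of all measured genes was 0.83. The other 6 members lay between -0.91 (Hp) and -0.58 (Chil3).

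Against Ly6g low cells, CD11b+ cells were again lower for all 10 members, and these comparisons share the CD11b+ cells. Here 4 members were at least 2-fold lower, against 7.83% of 4774 genes, and 0 higher, against 30.3%. Orm1 averaged 95.2 TPM in CD11b+ cells against 222 TPM in Ly6g low cells (log2 ratio -1.22), Cd177 466 and 1029 TPM (-1.14), Hp 862 and 1748 TPM (-1.02) and Chil3 7308 and 14793 TPM (-1.02). The median over the members was -0.94, and that of all measured genes 0.48.

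The Ly6g high and Ly6g low gates held similar amounts of the members. In the pair 0 of 10 were at least 2-fold higher and 0 at least 2-fold lower, against 7.96% and 23.7% of 3983 genes. Camp averaged 55886 TPM in Ly6g high cells against 55818 TPM in Ly6g low cells, and Ngp 93323 and 97631 TPM. Chil1 was the furthest apart, with 852 TPM in Ly6g high cells against 469 TPM in Ly6g low cells (log2 ratio 0.86), followed by Ltf with 10091 and 7241 TPM (0.48). Chil3 at 10961 and 14793 TPM and Orm1 at 164 and 222 TPM were lower in Ly6g high cells (-0.43 each). With 1 sample a gate, this does not show that the gates are alike.

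The gates differed in their mix of classes, and the part of this mix in the member differences was not tested. Cells outside the Myelo classes were 18 of 40 in CD11b+, 3 of 46 in Ly6g high and 4 of 41 in Ly6g low. Within the 14 CD11b+, 27 Ly6g high and 31 Ly6g low Myelo-2 cells, 0 members were at least 2-fold apart in any of the 3 pairs. The backgrounds there were 19.8% lower and 23.2% higher for CD11b+ over Ly6g high, 23.4% and 17% for CD11b+ over Ly6g low, and 19.8% and 13.1% for Ly6g high over Ly6g low. Summed over the members, these cells had medians of 24.4% of TPM in CD11b+, 23.4% in Ly6g high and 23.9% in Ly6g low. Since the classes may have been made with these genes, the members may be close inside Myelo-2 by construction. Among these Myelo-2 cells Hp had the lowest ratio of CD11b+ over each other gate, with 1168 TPM in the CD11b+, 1971 TPM in the Ly6g high and 1759 TPM in the Ly6g low Myelo-2 cells.

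**Figure D4:**
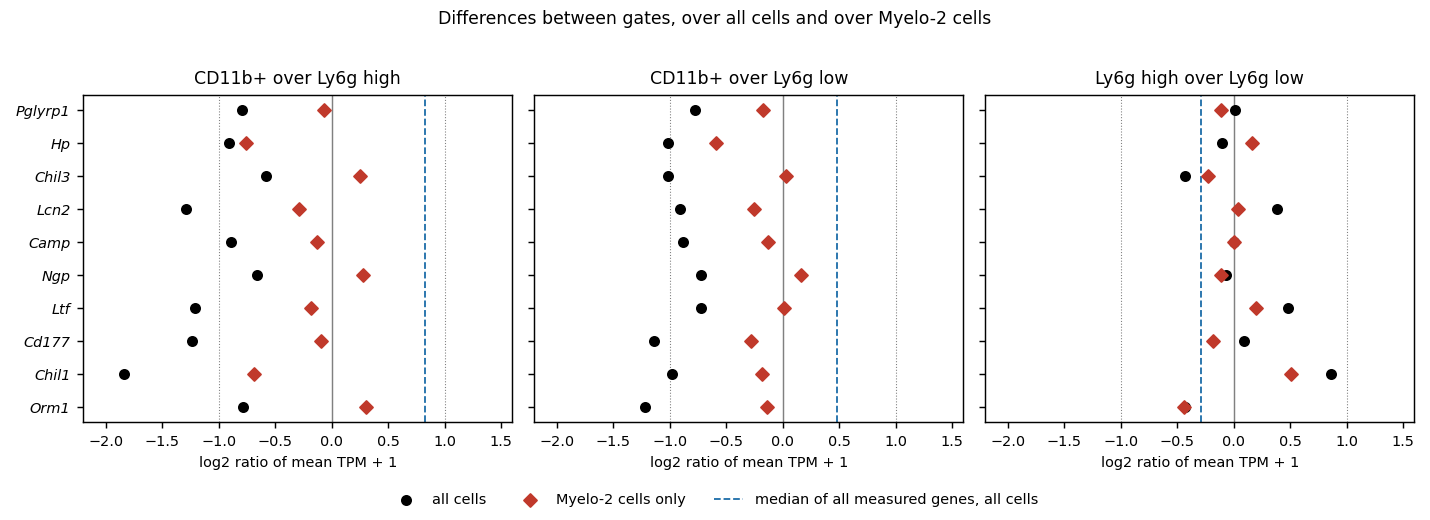
Each panel is a pair of gates, and the x axis is the log2 ratio of mean TPM + 1; black circles are all cells, red diamonds are Myelo-2 cells only, dotted lines mark 2-fold and the dashed line is the median of all measured genes over all cells. In both CD11b+ panels all 10 circles are below 0, and no diamond passes a dotted line in any panel.

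Of 18 other specific granule and secretory genes, 15 were measured in CD11b+ over Ly6g high. Of these, 6 were at least 2-fold lower and 0 higher, against 6.93% and 44.5% of all measured genes. In CD11b+ over Ly6g low 13 were measured, with 2 lower and 2 higher, against 7.83% and 30.3% of all genes. In Ly6g high over Ly6g low 15 were measured, with 4 higher and 1 lower, against 7.96% and 23.7%. Itgb2l, an integrin subunit of neutrophils, averaged 79.6 TPM for CD11b+, 463 TPM for Ly6g high and 261 TPM for Ly6g low. Fcnb, a ficolin of neutrophil granules, averaged 1562, 973 and 2902 TPM in the same order of gates. The 12 primary granule genes went the other way between CD11b+ and Ly6g high cells. Here 10 were at least 2-fold higher in CD11b+ and 0 lower, against 44.5% and 6.93% of all genes. In CD11b+ the monocyte genes summed to between 0 and 7757 TPM per cell, or at most 2058 TPM without cell 46, against 0 to 3077 TPM for Ly6g high and 0 to 2142 TPM for Ly6g low, and their part in these differences was not tested.

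Classes were also compared inside a single gate. In CD11b+ cells, 14 Myelo-2 cells were set against the 8 Gran-1 and Gran-2 cells. Of the 10 members, 9 were at least 2-fold higher in Myelo-2, against 11.8% of 6679 genes, and 0 lower, against 55.4%. Among the Gran cells, Cd177 passed 1 TPM only in cell 3 (57.7 TPM), Orm1 only in cell 4 (58.3 TPM) and Chil1 only in cell 27 (138 TPM). These members therefore counted as measured through their Myelo-2 cells alone and could hardly have come out lower there. Ngp averaged 132648 TPM in Myelo-2 and 58.3 TPM in Gran cells (log2 ratio 11.13), and Ltf 9403 and 27.98 TPM (8.34). CD11b+ cell 27 held 88.96% of the summed Ltf of the 8 Gran cells, and without it the Gran mean was 3.53 TPM (11.02). Without this cell the ratio also moved for Camp, to 7.78 in place of 5.49, and for Chil1, to 8.97 in place of 4.85. Pglyrp1 averaged 3573 and 1140 TPM (1.65), the smallest of the 9. Hp was the exception, with 1168 TPM in Myelo-2 and 1035 TPM in Gran cells (0.17), and its cells overlapped. The median over the members was 5.24, or 6.89 without cell 27, that of all genes -1.26, and 11 of 12 primary granule genes were at least 2-fold lower in Myelo-2.

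Camp and Ngp differed in the spread of their Gran cells. Camp averaged 59599 TPM in Myelo-2 and 1329 TPM in Gran cells, with Gran cells spanning 5.41 to 8742 TPM and a median of 24.9 TPM. For Ngp the 8 Gran cells spanned 26.1 to 180 TPM, and the lowest of the 14 Myelo-2 cells was at 67917 TPM. Of the other specific granule genes 7 of 12 measured were at least 2-fold higher in Myelo-2 and 1 lower, against 11.8% and 55.4% of all genes. Lyz2, a lysozyme, averaged 14371 TPM in Myelo-2 and 250 TPM in Gran cells, and Cybb, the oxidase subunit gp91phox, 1224 and 152 TPM. Fcnb did not follow the members, with 2433 TPM in Myelo-2 and 2458 TPM in Gran cells.

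In Ly6g high cells, 13 Myelo-4 cells were set against 27 Myelo-2 cells. Most members were less than 2-fold apart, while Chil3 and Orm1 were lower in Myelo-4 cells. Chil3 had a lowest, median and highest value of 23.6, 4170 and 11846 TPM in Myelo-4, against 4537, 16890 and 26523 TPM in Myelo-2 cells, with means of 4673 and 15507 TPM (log2 ratio -1.73). Orm1 had 0, 0.61 and 398 TPM in Myelo-4, against 0, 91.0 and 1143 TPM in Myelo-2 cells, with means of 41.7 and 217 TPM (-2.35, or -3.81 without the highest cell of each class). The classes overlapped for both.

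These were 2 of 10 members at least 2-fold lower and 0 higher, where 45.3% of 3105 genes were at least 2-fold lower and 13.7% higher, so the members' share was below that of all genes. Pglyrp1 averaged 5151 TPM in Myelo-4 and 3736 TPM in Myelo-2 cells (0.46), Lcn2 20975 and 16000 TPM (0.39), Ltf 11978 and 10690 TPM (0.16) and Camp 45634 and 65260 TPM (-0.52). The mean and median of Chil1 went different ways, with means of 997 and 854 TPM and medians of 203 and 767 TPM, since 4 Myelo-4 cells were above 1500 TPM. The median over the members was -0.083, and that of all genes -0.75.

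**Figure D5:**
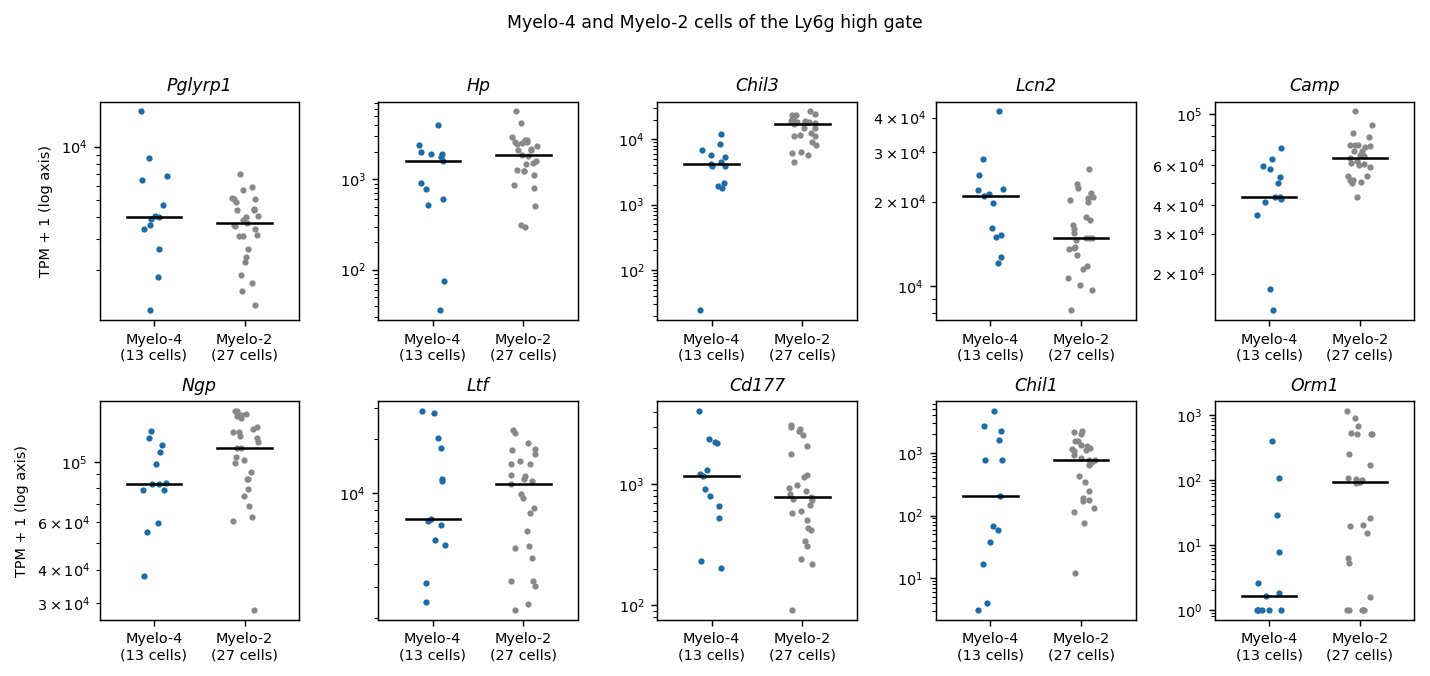
Each point is 1 cell of the Ly6g high gate, Myelo-4 (13 cells, blue) beside Myelo-2 (27 cells, grey); the y axis is TPM + 1 on a log scale that differs between panels, and bars are medians. The Chil3 medians are 4170 TPM in Myelo-4 and 16890 TPM in Myelo-2, and those of Lcn2 are 20880 and 14832 TPM.

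Genes outside the members were compared for the same cells. Mmp8, a collagenase of neutrophil granules, averaged 2277 TPM in Myelo-4 and 0.125 TPM in Myelo-2 cells, and Ceacam10, a carcinoembryonic antigen family member, 435 and 83.8 TPM. Fcnb averaged 203 TPM in Myelo-4 and 1352 TPM in Myelo-2 cells, in the direction of Chil3 and Orm1. Of the 18 other specific granule genes 15 were measured, with 5 at least 2-fold higher in Myelo-4 and 2 lower, against 13.7% and 45.3% of all genes.

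Over all gates, the 9 Myelo-3 cells had Chil3 at a median of 4695 TPM, and 3 of the 9 had Chil1 and 2 had Orm1 at 100 TPM or more. All 3 of those Chil1 cells were the Ly6g high ones, with 888, 944 and 1362 TPM, and the other 6 were at or below 1.54 TPM. CD11b+ cell 35, with the fewest genes of any cell (821), held 95202.5 TPM of Camp and 72307 TPM of Ngp but 8.29 TPM of Ltf and 0 TPM of Cd177. Over the 16 Myelo-4 cells Ltf averaged 11463 TPM, and over the 15 without CD11b+ cell 46 it averaged 12227 TPM.

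Across the 72 Myelo-2 cells the members were only loosely tied to each other. Over the 45 pairs, Pearson's r of log2(TPM + 1) had a median of 0.15 and was above 0 in 32. The highest was Ngp with Chil3 (r = 0.57, Spearman's rho 0.66), followed by Ltf with Cd177 (0.55 and 0.58), Ngp with Ltf (0.55 and 0.60) and Ltf with Lcn2 (0.52 and 0.42). Camp had r of -0.19 with Cd177, -0.18 with Ltf and -0.10 with Ngp, but 0.29 with Pglyrp1 and 0.04 with Lcn2. With TPM rescaled to the genes outside the members, Camp with Ngp turned to 0.13, Camp with Ltf was -0.018 and Camp with Cd177 was -0.096, so no negative relation is read. Over cells of all classes the median r was 0.66, and Camp with Ngp reached 0.96; the classes themselves differ in level there. These values describe cells that share libraries, depth and a fixed TPM total, and weak ones in sparse data are no finding.

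By the same measure the nearest gene outside the members was Lyz2 for Ltf (r = 0.66, rho 0.50) and for Lcn2 (0.62 and 0.56). It was Cybb for Ngp (0.54 and 0.40), Ssr1 for Chil3 (0.51 and 0.49), Alox5ap for Orm1 (0.49 and 0.39), Cyfip2 for Cd177 (0.42 and 0.35) and Cd9 for Hp (0.42 and 0.18). It was Ptpn22 for Pglyrp1 (0.39 and 0.40), S100a9 for Camp (0.37 and 0.18) and Plbd1 for Chil1 (0.37 and 0.34). Each is the highest of 2931 genes over 72 cells, so picking the top gene alone raises r, and no relation is read from the weaker ones. For Hp, Itgb2 also had an r of 0.42, and with rescaled TPM the nearest gene was Lcp1. With the mean of the 10 members, Lyz2 had an r of 0.65, Lyz1 0.49 and Alox5ap 0.47, among 2931 genes. The number of genes detected had r of 0.0038 with that mean, but between -0.28 (Camp) and 0.27 (Chil3) with single members.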

How the data were processed

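The authors deposited log2(TPM + 1) values for 23946 genes in each cell. The scale was read from the values, which turn back to TPM summing to between 999633 and 1005383 per cell. The submitters' processing notes name Bowtie2, RSEM and build mm9; their versions and the annotation are not given in the sources used here. Per the labels' protocols, cells were captured on the Fluidigm C1 system and libraries were made with SMARTer and Nextera XT chemistry. A second deposited file names a class for each cell. Read depth cannot be had from TPM, and genes at 1 TPM or more stand in for it.

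The members and gene lists were chosen with earlier results of these data known. Values were turned back to TPM, averaged over cells, and compared as log2 ratios after adding 1 TPM, which understates differences of low genes. A 2-fold ratio counted as a difference. Besides the members, the rule named gate, regulator, primary granule and late genes, the nearest gene to each member, and other specific granule genes at least 2-fold different; single cells, Lyz2, Cybb and genes of marker lists were also named after their values were seen. Lists of other cell types served as checks. The intervals are exact binomial. The log2 ratio step was tested with changes planted in cells drawn at random from the Ly6g low gate. Ranking by cell counts was tried on a simulated order without noise, which it could hardly miss. The other steps were not tested in this way. No cell was left out and doublets were not called. Python 3.11.15, numpy 2.4.6, pandas 2.3.3 and scipy 1.17.1 were used.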

Additional observations from a re-analysis of the deposited data

How the results depend on the processing

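No paired analysis was possible because no test was made: the numbers that CD11b+ and Ly6g low cells share only name cells. For CD11b+ over Ly6g high the members' median was -0.90, but -4.34 from means of log2(TPM + 1) and -0.11 in Myelo-2 cells only; the count of members at least 2-fold lower was 4, but 10 with log2 means, 0 in Myelo-2 cells, 1 in cells with 1500 to 3000 genes and 1 in Myelo classes only. For CD11b+ over Ly6g low the median was -0.94, but -3.31 with log2 means, -0.15 in Myelo-2 cells and -0.25 in Myelo classes only, and the count of 4 became 10, 0, 1 (1500 to 3000 genes) and 0 (Myelo classes). In that pair Chil3 changed side in Myelo-2 cells, at 0.026 against -1.02. For Ly6g high over Ly6g low the count at least 2-fold higher was 0, but 2 with log2 means. Among these alternatives the share of all genes at least 2-fold apart was counted for Myelo-2 cells alone. The other counts therefore cannot be set against all genes, and nothing about the members is read from them. For Myelo-2 over Gran cells the median was 5.24, but 7.21 with log2 means and 7.91 without the highest cell of each group and 6.89 without CD11b+ cell 27. The median r among members was 0.15 in Myelo-2 cells, but 0.66 over cells of all classes, 0.051 in CD11b+ and 0.037 in Ly6g high Myelo-2 cells. Of 480 values of single members under the alternatives, 398 moved by less than 1.5 times, 81 by more, and 1 that was at least 2-fold changed side. A change of side was counted only for ratios of at least 2-fold. Smaller ratios that changed side are within the 398 and 81, and their number is not given. Of 44 untied pairs in the order of appearance at 100 TPM, 30 kept their direction at 1 TPM, 34 at 10 TPM, 34 at 1000 TPM, 40 outside the Myelo classes and 43 without the MDP cell and CD11b+ cell 46. Alternatives by Myelo class, by own Myelo-2 mean, by gate, without those cells and without cell 27 were chosen after seeing the data. The causes were not tested. The limits are 1 sample per gate, unnamed animals, few cells in most classes, and a depth that is known only as genes per cell.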
